A study of Mus musculus with 6 samples.

Results

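The expression of 10 marker genes of macrophages and monocytes was followed in brown adipose tissue (BAT) of wild-type and Letmd1 KO mice. They were found by gene symbol among the 23282 rows of each count file: Adgre1, Csf1r, Cx3cr1, Lyz2, Mrc1, Cd163, Lyve1, F13a1, Ccr2 and Ly6c2, 10 of 10 present. The symbols were fixed as markers, with Mrc1, Cd163, Lyve1 and F13a1 as resident genes and Ccr2 and Ly6c2 as monocyte genes. Adgre1, Csf1r, Cx3cr1 and Lyz2 mark the wider lineage.

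RNA came from BAT of 6 male C57BL/6N mice at 5 weeks of age, 1 mouse per library, with 3 wild-type and 3 Letmd1 KO mice. Letmd1 KO mice carry a knockout-first allele from an ES cell clone, with a lacZ and neomycin cassette in the Letmd1 intron between exons 2 and 3, in every tissue. LETMD1 is a mitochondrial protein of brown adipocytes, and because the allele is not limited to fat, it is also carried by the blood and immune cells. QuantSeq libraries were made, in which a read comes from near the 3′ end of its mRNA and longer genes gain no counts by their length.

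Macrophages of fat tissue include long-lived resident cells, which commonly carry scavenger and lectin receptors such as CD163, MRC1 and LYVE1, and cells derived from blood monocytes, which enter through the chemokine receptor CCR2. Both need the receptor CSF1R for survival. Classical mouse monocytes carry Ly6C on their surface and lose it as they mature into macrophages.

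Of the 10 marker genes, 9 rose in Letmd1 KO BAT and 0 fell (0 by edgeR, DESeq2 or limma, also at an unadjusted p under 0.05). The monocyte receptor gene Ccr2 rose 7.80-fold, close to the lineage gene Adgre1 (7.24-fold), and the macrophage lysozyme gene Lyz2 rose 13.9-fold. Within the resident group the rise ran from 4.80-fold for Mrc1 and 3.34-fold for F13a1 to 2.09-fold for Lyve1 and 1.56-fold for Cd163. Ly6c2, which encodes the Ly6C antigen of monocytes, was at 12.1 ± 2.94 CPM in wild-type and 12.6 ± 2.58 CPM in Letmd1 KO mice (CPM being counts scaled to TMM-corrected library sizes, SD, n = 3).

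Every library had between 6669577 and 14574273 counts, and 3 counts, the most that a count of 0 leaves possible, were worth 0.176 to 0.397 CPM in a library (this floor covers counting error only). The targeted gene matched the genotype labels: wild-type libraries held 5658, 6490 and 5266 counts of Letmd1, and Letmd1 KO libraries held 0, 0 and 1. All 10 marker genes were above the floor in all 6 mice and passed edgeR's filter on low counts. Of the 12995 genes tested, 23.7% were called higher and 22.3% lower (quasi-likelihood test in edgeR, Benjamini-Hochberg adjusted p under 0.05), against 9 higher and 0 lower of the 10 marker genes. Separately, 30.1% of genes tested had every Letmd1 KO mouse above every wild-type mouse, as did 9 of 10 marker genes. The median log2 fold change was 2.17 over the marker genes and 0.033 over all genes tested. TMM factors were 0.852 to 0.887 in wild-type and 1.13 to 1.17 in Letmd1 KO libraries. In whole tissue, more cells of a type cannot be told apart from more RNA of a gene per cell.

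**Figure D1:**
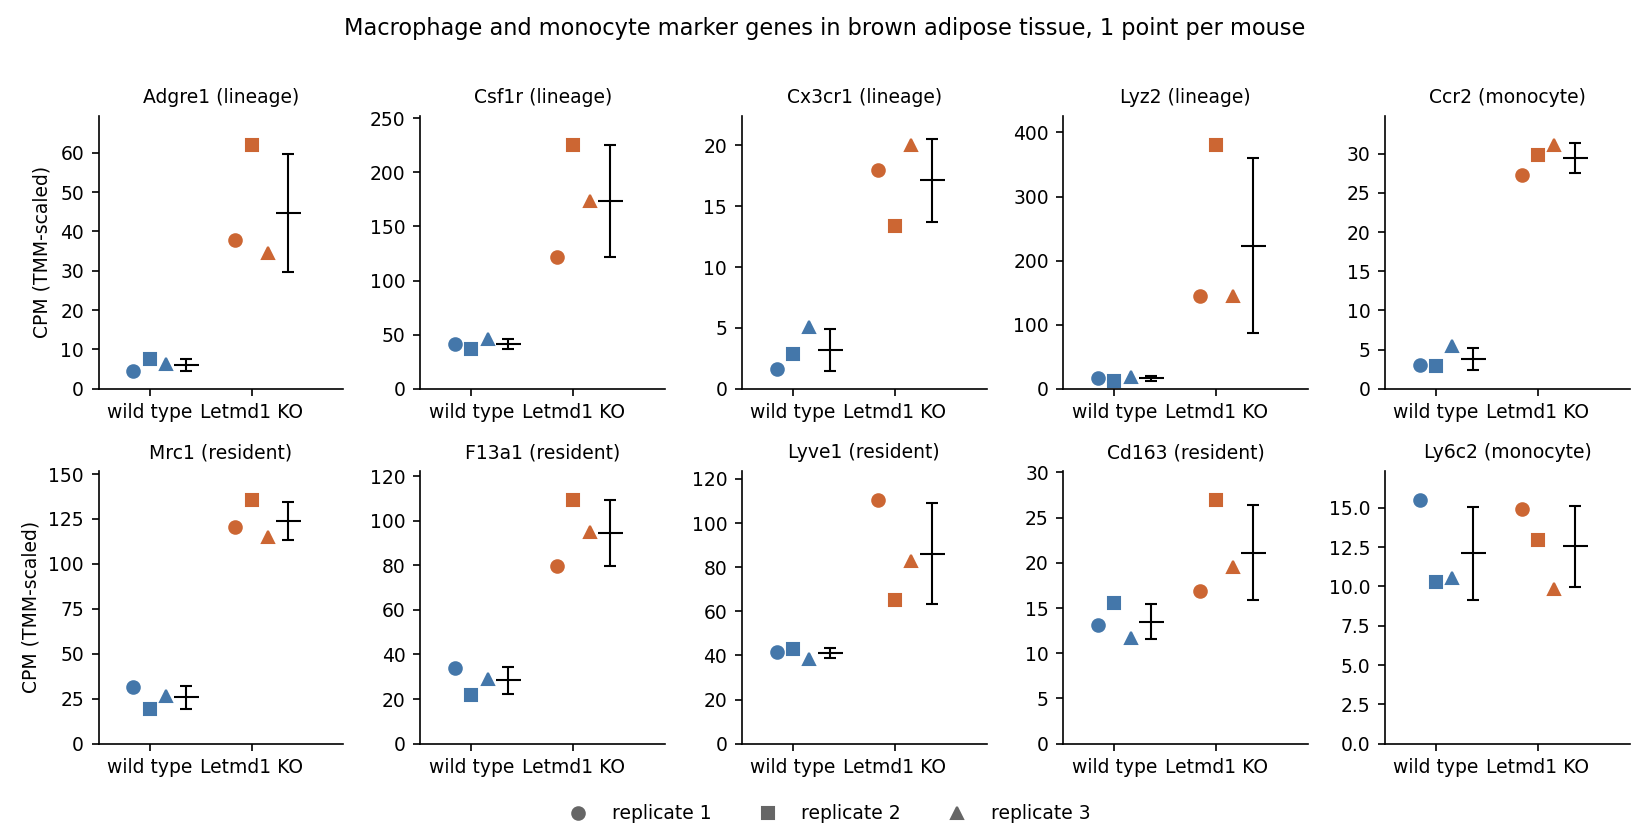
TMM-scaled CPM (linear vertical axes from 0) of the 10 marker genes, with 1 point per mouse and the group mean with its SD as a bar beside the points (n = 3). In 9 panels all Letmd1 KO points lie above all wild-type points, and in the Ly6c2 panel the groups overlap between 10.3 and 14.9 CPM.

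The 4 lineage genes all rose. Adgre1 (chr17:57358691-57483527, plus strand, GRCm38) encodes F4/80, the adhesion receptor used to identify mouse macrophages. It stood at 4.52, 7.52 and 6.38 CPM in wild-type mice 1 to 3 and at 37.8, 62.0 and 34.4 CPM in Letmd1 KO mice 1 to 3. The lowest Letmd1 KO mouse was thus well above the highest wild-type mouse, with a log2 fold change of 2.86 ± 0.28 (SE) and an adjusted p of 5.06e-05. Csf1r, the receptor for the macrophage growth factors CSF1 and IL-34, was at 41.0, 36.8 and 45.7 CPM in the wild-type and 121.5, 225.2 and 173.4 CPM in the Letmd1 KO mice. The wild-type mice lay close together while the Letmd1 KO mice were spread widely, without overlap, and the log2 fold change was 2.07 ± 0.21 (adjusted p = 6.51e-05). The annotated span of Csf1r overlaps Hmgxb3, which is transcribed the other way, and whether counting used strand is not given in the sources used here.

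Cx3cr1 (chr9:119901616-120069879, minus strand) encodes the fractalkine receptor, found on patrolling monocytes and on several resident macrophages. Wild-type mice had 1.61, 2.86 and 5.08 CPM of Cx3cr1 and Letmd1 KO mice had 18.0, 13.4 and 20.0 CPM. It was the marker gene with the lowest wild-type level, yet its groups did not overlap (log2 fold change 2.45 ± 0.36, adjusted p = 5.41e-04). Its annotated span also covers parts of Csrnp1, Gorasp1, Wdr48 and other genes on both strands. Lyz2 (chr10:117277331-117282321, minus strand) encodes lysozyme M, a secreted enzyme that degrades bacterial cell walls and is abundant in macrophages, monocytes and neutrophils. Lyz2 was measured at 17.1, 12.3 and 19.0 CPM in the wild-type and at 144.8, 380.5 and 145.3 CPM in the Letmd1 KO mice. Letmd1 KO mouse 2 stood far above the other two, which were nearly equal and still several times above every wild-type mouse (log2 fold change 3.79 ± 0.40, adjusted p = 8.20e-05). Without Letmd1 KO mouse 2 the log2 fold change was 3.17 (adjusted p = 5.37e-06).

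All 4 resident genes were called higher, though by very different amounts. Mrc1 (chr2:14229392-14332057, plus strand) encodes the mannose receptor CD206, a lectin that takes up glycoproteins. Levels were 31.8, 19.3 and 26.3 CPM in the wild-type and 120.6, 135.6 and 114.9 CPM in the Letmd1 KO mice. The 3 Letmd1 KO mice were close to each other, and Mrc1 had the smallest adjusted p of the marker genes (log2 fold change 2.26 ± 0.18, adjusted p = 1.86e-05). F13a1 (chr13:36867178-37050244, minus strand) encodes the A subunit of coagulation factor XIII, a transglutaminase that cross-links fibrin and is made by resident macrophages and megakaryocytes. F13a1 went from 34.0, 21.8 and 29.2 CPM in the wild-type to 79.7, 109.3 and 94.8 CPM in the Letmd1 KO mice. Again no mouse of one genotype lay within the other (log2 fold change 1.74 ± 0.18, adjusted p = 8.02e-05).

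Lyve1 (chr7:110850607-110863239, minus strand) encodes a hyaluronan receptor of perivascular macrophages and of lymphatic endothelium. The wild-type mice had 41.7, 43.1 and 38.5 CPM of Lyve1, and the Letmd1 KO mice had 110.5, 65.0 and 82.7 CPM. Letmd1 KO mouse 2, the highest for Lyz2, was the lowest for Lyve1, and the groups did not overlap (log2 fold change 1.07 ± 0.18, adjusted p = 0.00126). A list of 6 lymphatic endothelial markers summed to 14.6 to 25.0 CPM in wild-type and 25.9 to 34.1 CPM in Letmd1 KO mice. Of its 4 tested genes, 1 rose, near the share over all genes tested (23.7% higher). That gene was Pdpn, which stromal cells also express (log2 fold change 2.15, adjusted p = 0.00141), while Ccl21a, Reln and Flt4 had values of 0.21, 0.067 and -0.31. Prox1, the transcription factor that defines lymphatic identity, had no more than 3 counts in any mouse. The part of lymphatic endothelium in the Lyve1 level was not tested.

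Cd163 (chr6:124304656-124330527, plus strand), the scavenger receptor for haptoglobin-haemoglobin complexes, showed the smallest rise that passed the threshold. It was at 13.1, 15.6 and 11.7 CPM in the wild-type and 16.9, 27.0 and 19.5 CPM in the Letmd1 KO mice. The highest wild-type and the lowest Letmd1 KO mouse nearly met (log2 fold change 0.64 ± 0.21, adjusted p = 0.0310). Without Letmd1 KO mouse 2 the log2 fold change was 0.43 (adjusted p = 0.0978), and the call was also lost without wild-type mouse 1 or 3, without Letmd1 KO mouse 3 (adjusted p 0.0551 to 0.0777), and after quantile normalization (0.49, adjusted p = 0.0794).

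The monocyte genes parted. Ccr2 (chr9:124101950-124113557, plus strand) encodes the receptor through which CCL2 and CCL7 call monocytes out of the marrow and into tissue. Wild-type mice had 3.01, 2.96 and 5.47 CPM of Ccr2 against 27.3, 29.9 and 31.1 CPM in the Letmd1 KO mice. The Letmd1 KO mice lay within a narrow range far above the wild-type mice (log2 fold change 2.96 ± 0.24, adjusted p = 2.12e-05). Ly6c2 (chr15:75108158-75111970, minus strand) was at 15.5, 10.3 and 10.5 CPM in the wild-type and 14.9, 12.95 and 9.81 CPM in the Letmd1 KO mice. The genotypes overlapped fully (log2 fold change 0.042 ± 0.24, adjusted p = 0.899). The log2 difference of Ccr2 minus Ly6c2 within a mouse was -1.65 ± 0.69 in wild-type and 1.23 ± 0.39 in Letmd1 KO BAT, without overlap.

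Ly6c2 is the marker gene whose counts are least certain, because a neighbouring gene on chromosome 15, Ly6c1, is nearly identical to it. Ly6c1 encodes the Ly6C protein of endothelial and other cells. The last 150 coding bases of both, the part of the coding sequence nearest to the end that QuantSeq reads, are shown 5′ to 3′ with the differing bases in capitals (GENCODE vM21, GRCm38).
Ly6c2: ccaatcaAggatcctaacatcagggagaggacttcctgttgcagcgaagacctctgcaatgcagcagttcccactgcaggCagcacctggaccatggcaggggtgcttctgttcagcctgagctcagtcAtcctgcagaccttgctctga
Ly6c1: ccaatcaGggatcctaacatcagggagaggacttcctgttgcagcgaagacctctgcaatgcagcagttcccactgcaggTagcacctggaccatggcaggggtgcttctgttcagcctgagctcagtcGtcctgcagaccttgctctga
The shown stretches differ at 3 bases, and the whole coding sequences at 9 of 396 (97.7% identity). Of the 708 stretches of 75 bases, the read length, in the last 500 bases of Ly6c2 transcripts, 23.2% are also found exactly in Ly6c1 and 97.2% lie within 3 mismatches of it. The authors counted reads with multiple alignments as well as unique ones. Ly6c2 counts were 5.95% to 11.3% of those of Ly6c1 in each mouse. Ly6c1 had 232, 173 and 127 CPM in the wild-type and 152, 115 and 132 CPM in the Letmd1 KO mice, which overlapped (log2 fold change -0.42 ± 0.20, adjusted p = 0.120). The share of Ly6c2 counts that come from Ly6c1 mRNA was not tested.

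Lyz2 also has a near copy, Lyz1, an intestinal lysozyme gene, with coding sequences that differ at 22 of 447 bases (95.1% identity). Here 49.8% of the stretches of 75 bases lay within 3 mismatches of Lyz1. Lyz1 counts were 15.8% to 36.5% of Lyz2 counts in each mouse, and Lyz1 also rose (log2 fold change 3.77 ± 0.39, adjusted p = 7.29e-05), so the division of reads between the pair is uncertain. The other 8 marker genes shared no exact stretch of 75 bases with another gene in their last 500 bases.

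**Figure D2:**
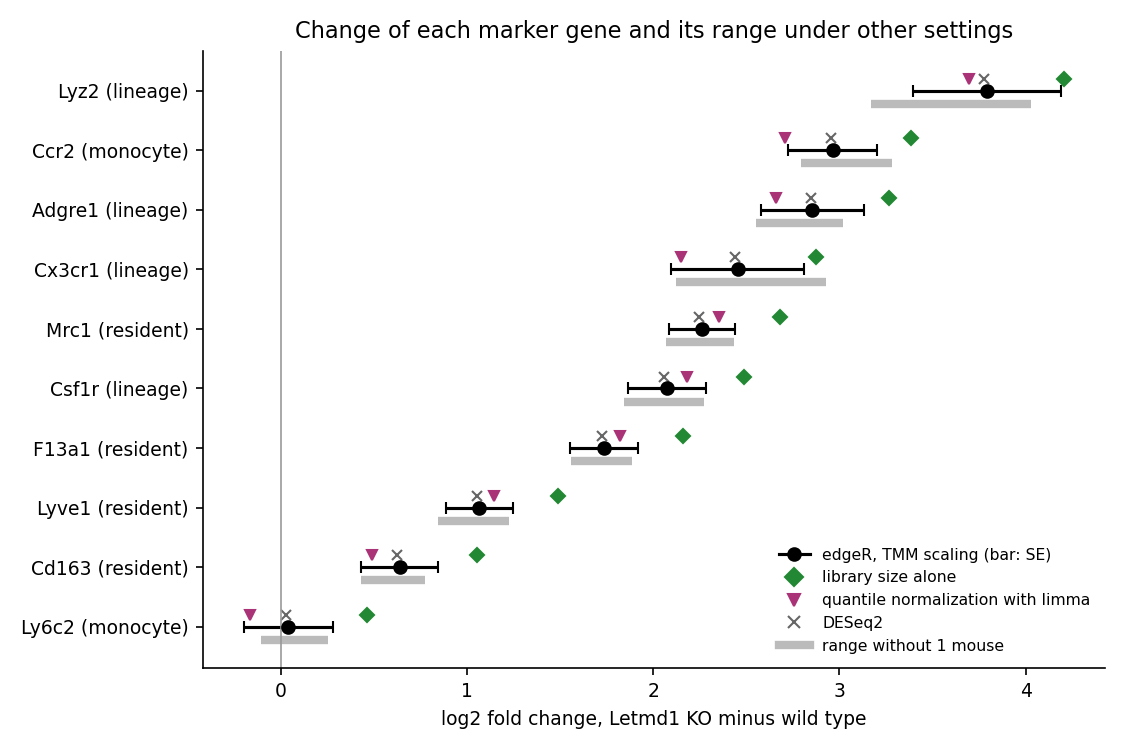
Log2 fold change of each marker gene, Letmd1 KO minus wild type, with black points and SE bars from edgeR on TMM-scaled counts (3 mice per genotype), coloured symbols from 3 other settings and grey bars for the range when 1 mouse is left out. Lyz2 is highest at 3.79 and Ly6c2 lies at 0.042, and scaling by library size alone shifts all genes to the right.

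Because library scaling cancels in a ratio within a mouse, each marker gene was also set against Csf1r. Relative to Csf1r, Lyz2 went from 41.7, 33.3 and 41.6 reads per 100 Csf1r reads in the wild-type to 119, 169 and 83.8 in the Letmd1 KO mice. Ccr2 went from 7.35, 8.05 and 11.97 to 22.5, 13.3 and 17.9 per 100 Csf1r reads. These were the 2 marker genes of 9 with every Letmd1 KO ratio above every wild-type ratio, which held for 1.82% of genes with a ratio. In the other direction, Cd163 went from 32.0, 42.2 and 25.6 to 13.9, 11.97 and 11.2 per 100 Csf1r reads, and Ly6c2 from 37.8, 27.9 and 23.1 to 12.3, 5.75 and 5.66. Falling below the wild-type ratios in this way was the usual case, found for 85.3% of genes.

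The remaining 5 ratios overlapped between genotypes. On the log2 scale, Letmd1 KO minus wild type, the mean ratio differed by 0.81 for Adgre1, 0.53 for Cx3cr1 and 0.26 for Mrc1, and for F13a1 and Lyve1 by -0.28 and -1.0. Among the resident genes, the log2 difference of Mrc1 minus Cd163 was 0.91 ± 0.52 in wild-type and 2.56 ± 0.25 in Letmd1 KO mice. Mrc1 minus Lyve1 went from -0.70 ± 0.40 to 0.55 ± 0.47, and neither pair of groups overlapped. So the proportions of Mrc1 to Cd163 and to Lyve1 were higher in all 3 Letmd1 KO mice. Lyve1 minus Cd163 overlapped between the genotypes (1.60 ± 0.13 and 2.01 ± 0.72).

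**Figure D3:**
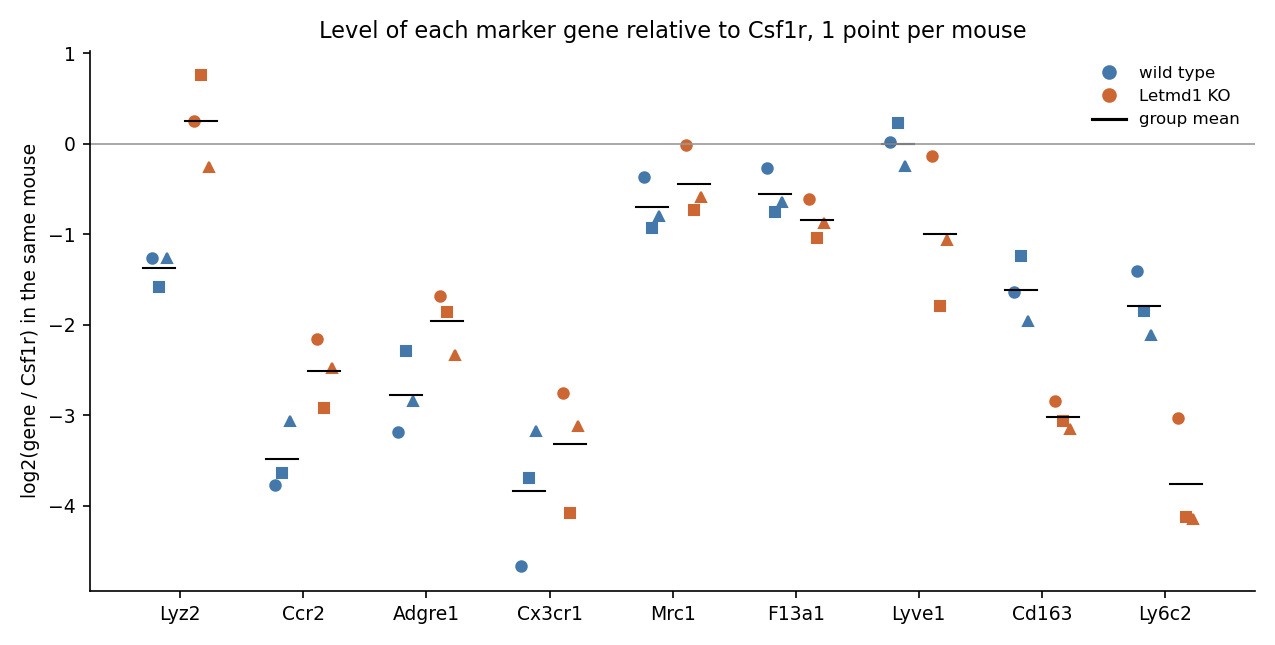
Log2 ratio of each marker gene to Csf1r in the same mouse (vertical axis), with 1 point per mouse (circle, square and triangle for replicates 1 to 3), blue for wild type, orange for Letmd1 KO, and black lines for group means. Lyz2 and Ccr2 lie higher in all 3 Letmd1 KO mice, Cd163 and Ly6c2 lie lower, and 5 genes overlap.

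For resident against monocyte genes, the mean log2 level of the 4 resident genes minus that of the 2 monocyte genes was taken in each mouse. This difference was 1.98, 2.01 and 1.65 in the wild-type and 1.68, 1.85 and 1.88 in the Letmd1 KO mice. The genotypes overlapped, with means of 1.88 ± 0.20 and 1.80 ± 0.11. That overlap depended on the genes and the form used. As a log2 ratio of summed CPM, every Letmd1 KO mouse lay above every wild-type mouse (2.78 ± 0.12 and 2.95 ± 0.023 in wild-type and Letmd1 KO mice), and without Mrc1 every Letmd1 KO mouse lay below (1.87 ± 0.25 and 1.51 ± 0.11). With Ccr2 as the only monocyte gene the difference went from 2.70 ± 0.53 to 1.19 ± 0.11, and with Ly6c2 as the only one it went from 1.06 ± 0.20 to 2.42 ± 0.29, each time without overlap.

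The Letmd1 KO mice also differed among themselves. Letmd1 KO mouse 2 was the highest of the 3 for 6 marker genes, Adgre1, Csf1r, Lyz2, Mrc1, Cd163 and F13a1, and the lowest for Cx3cr1 and Lyve1. A list of 7 genes of lipid-associated macrophages, cells that take up lipid through receptors such as TREM2, summed to 907, 2549 and 530.5 CPM in Letmd1 KO mice 1 to 3, and to 164 to 216 CPM in wild-type mice. Of its 7 genes, 6 rose, and 6 without Letmd1 KO mouse 2, while DESeq2 called 4. In edgeR, 23.7% of all genes tested were called higher. Trem2 had no more than 1 count in any wild-type mouse and was at least 67.1-fold higher in Letmd1 KO BAT, taken against the floor of 3 counts per library, and at least 28.0-fold higher without Letmd1 KO mouse 2. Spp1, encoding osteopontin, was at least 130.3-fold higher, but had 30 and 19 counts in Letmd1 KO mice 1 and 3 and 983 in mouse 2, without which the bound was 6.41-fold. Its call was lost without wild-type mouse 1 or 2 (adjusted p up to 0.060). Cd9 and Fabp5, the lowest of the list, had log2 fold changes of 1.76 (adjusted p = 0.0110, or 1.02 without Letmd1 KO mouse 2) and 0.74 (adjusted p = 0.122).

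The ligands and partners of CSF1R were described next, from lists of known genes. Csf1, the growth factor that stromal cells make for macrophages, was at 11.3, 9.32 and 10.7 CPM in the wild-type and 59.4, 49.4 and 74.0 CPM in the Letmd1 KO mice. All Letmd1 KO mice were thus far above all wild-type mice (log2 fold change 2.55 ± 0.18, adjusted p = 1.24e-05). The alternative ligand Il34 had levels of 6.46, 8.58 and 6.64 CPM against 7.90, 8.99 and 11.8 CPM, which overlapped (0.41 ± 0.24, adjusted p = 0.187). Of 8 ligands and partners, 5 rose and 1 fell, against 23.7% higher and 22.3% lower over all genes tested. Csf2ra, the alpha chain of the GM-CSF receptor, rose (2.79, adjusted p = 1.46e-06), and its partner chain Csf2rb was at 0.78 ± 0.31 (adjusted p = 0.0646). The genes of 3 myeloid transcription factors rose: Spi1, which encodes PU.1 (2.82, adjusted p = 1.98e-04), Irf8 (2.71, adjusted p = 2.46e-05) and Runx1 (1.91, adjusted p = 0.0126, or 1.22 without Letmd1 KO mouse 2). Cebpb, a factor shared by myeloid cells and adipocytes, fell by 1.13 on the log2 scale (adjusted p = 3.00e-04).

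Among 5 chemokine genes whose products bind CCR2 or CX3CR1, 4 rose, against 23.7% of all genes tested. Cx3cl1, which encodes fractalkine, the ligand of CX3CR1, had 13, 14 and 32 counts in wild-type libraries and 509, 277 and 959 in Letmd1 KO libraries. The genotypes were far apart (log2 fold change 4.44 ± 0.36, adjusted p = 2.25e-05). Ccl2, the main ligand of CCR2, had 3, 2 and 0 counts in wild-type libraries and 120, 71 and 149 in the Letmd1 KO mice, at least a 30.4-fold rise against the floor (adjusted p = 3.56e-05). Ccl7 was likewise at the floor in wild-type BAT and at least 20.2-fold higher (adjusted p = 2.83e-05). Ccl8 rose with a log2 fold change of 3.75 ± 0.61 (adjusted p = 9.80e-04), which ran from 3.13 without Letmd1 KO mouse 2 to 4.72 without wild-type mouse 3. Cx3cl1 reached 5.09 without wild-type mouse 3, and Ccl12 had a value of 1.98 ± 0.81 (adjusted p = 0.0716). The list's median was 4.44, or 4.34 with Ccl2 and Ccl7 at their bounds.

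Relatives of the marker genes were compared in the same fit, on the log2 scale. Ccr1, the gene of an inflammatory chemokine receptor, rose at least 8.67-fold (adjusted p = 3.53e-04). Mrc2, a member of the mannose receptor family and a collagen receptor of fibroblasts, rose by 1.37 (adjusted p = 0.00307). Adgre5, an adhesion receptor of many leukocytes, rose by 0.64 (adjusted p = 0.00240). The Ly6 genes Ly6a and Ly6e, expressed well beyond monocytes, rose by 0.63 and 0.71 (adjusted p = 0.00268 and 0.0119), and the call of Ly6e was lost without wild-type mouse 1 or 2 (adjusted p up to 0.0523). Stab2, too low to be tested, had 0 counts in each wild-type library and 2, 7 and 6 in Letmd1 KO libraries. F13b, the liver-made partner of F13a1, had no counts.

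Further lists put the 10 genes beside others used as markers of the same cells, with values as log2 fold changes. The shares over all genes tested were 23.7% higher and 22.3% lower. How much of these genes' RNA came from other cells of the tissue was not tested. All 14 tested macrophage lineage genes rose (median 2.67), from Cd14 and C1qa (1.10 and 2.36) to Cd68 and Ctss (3.96 and 4.03, the latter 3.34 without Letmd1 KO mouse 2). Mertk, the remaining gene of this list of 15, was too low to be tested and did not rise. It had 12, 5 and 6 counts in wild-type and 2, 5 and 5 in Letmd1 KO libraries, which overlapped. Of 15 tested resident macrophage genes outside the 10, 13 rose and 1 fell (median 1.72). Pf4 and Folr2 were highest (2.60 and 2.25). Sepp1, encoding selenoprotein P, was at -0.056 (adjusted p = 0.872). Of 9 tested monocyte genes outside the 10, 8 rose (median 2.39), including Plac8 (3.10, or 4.14 without wild-type mouse 3) and Ms4a4c (at least 8.91-fold), and Ace was lowest of these (1.26). Nr4a1, a factor of patrolling monocytes that is also induced by many stimuli, had a value of -1.23 with overlapping groups (adjusted p = 0.217), and ran from -1.76 without wild-type mouse 2, where it was called, to 0.39 without wild-type mouse 3. Chil3 and Cd300e were at or under 3 counts in every mouse.

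**Figure D4:**
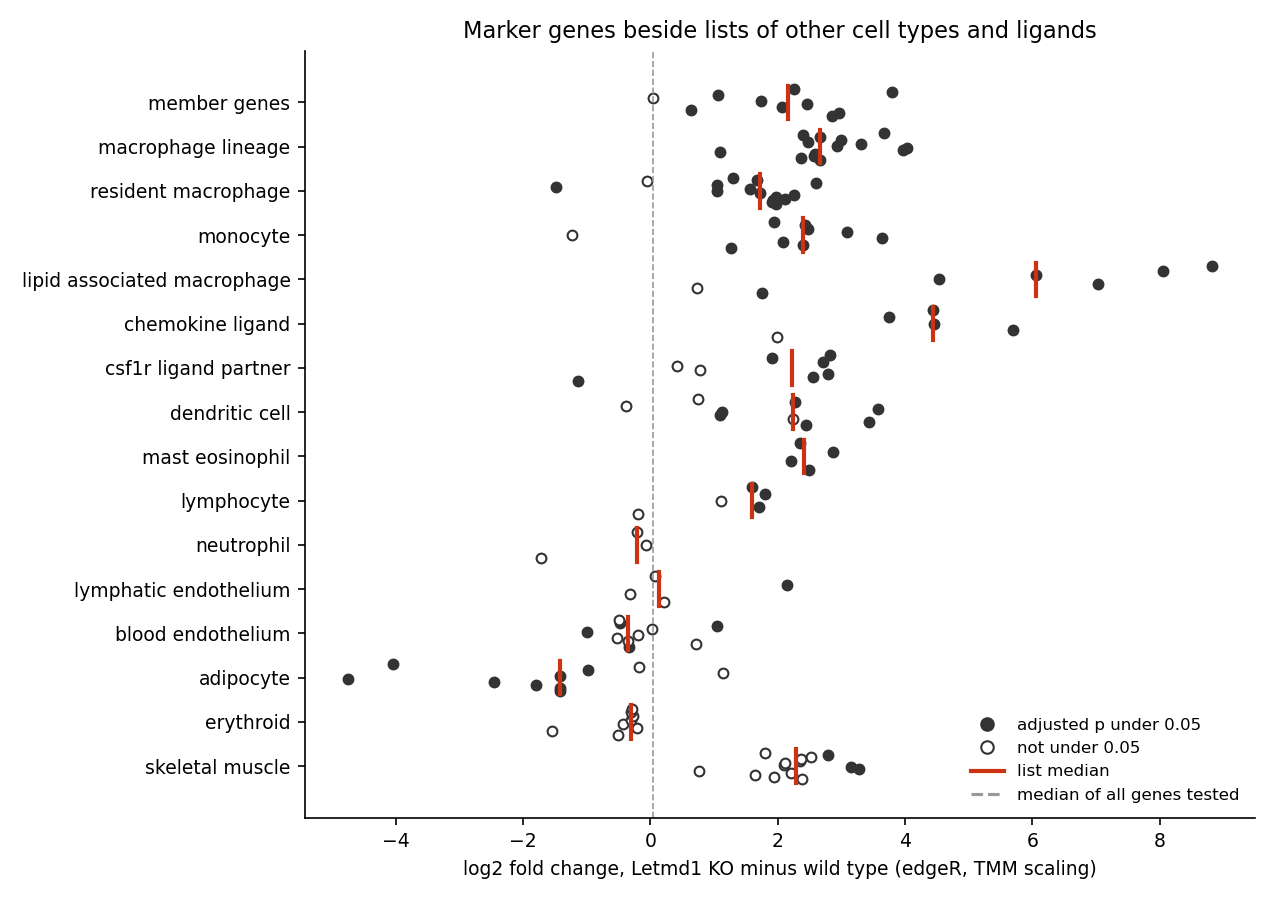
Log2 fold change of every tested gene (1 point each, Letmd1 KO minus wild type, edgeR on TMM-scaled counts) in the 10 marker genes (top row) and 15 lists, with filled points for adjusted p under 0.05, a red line at each list's median and a dashed line at the median of all genes tested (0.033). The medians are 2.17 for the marker genes, 2.67 for macrophage lineage, -0.21 for neutrophil and -1.42 for adipocyte genes.

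Other cells that share these markers were checked, beside the shares of 23.7% higher and 22.3% lower over all genes tested. Lyz2 is also a neutrophil gene, and 0 of 3 tested neutrophil genes were called by edgeR, DESeq2 or limma, also at an unadjusted p under 0.05 (log2 fold changes of S100a8, S100a9 and Retnlg were -0.076, -0.21 and -1.72). Single mice set these values: without Letmd1 KO mouse 2 they were -1.64, -1.60 and -2.53, and without wild-type mouse 3 they were 1.54, 1.07 and -0.14. The list of 12 summed to 1.91 to 51.2 CPM in wild-type and 1.82 to 53.9 CPM in Letmd1 KO mice. Of 9 dendritic cell genes, which include users of Csf1r and Cx3cr1, 6 rose (median 2.24). Flt3 and Ccr7 were highest (3.57 and 3.43, with 5.68 for Flt3 without wild-type mouse 3 and 4.15 for Ccr7 without wild-type mouse 2), and Siglech and Zbtb46 lowest (-0.38, adjusted p = 0.487, and 0.74, adjusted p = 0.0676). In the list of mast cell and eosinophil genes, the 4 tested were all mast cell genes, and all 4 rose (Cpa3, Tpsb2, Cma1 and Mcpt4, 2.20 to 2.87, with Mcpt4 at 4.03 without wild-type mouse 1). The eosinophil genes of the list were too low to be tested. Siglecf had 0 counts in each wild-type library and 5, 7 and 10 in Letmd1 KO libraries. Ccr3 had 0 in each wild-type library and 11, 5 and 7 in Letmd1 KO libraries. Prg2 had 2, 0 and 0 against 1, 2 and 10 counts, which overlapped, and Epx was at or under 3 counts in every mouse. Of 5 tested lymphocyte genes, 3 rose, with Klrb1c and Cd4 highest (1.81 and 1.70) and Cd3d and Gzma lowest (-0.19 and 1.11, not called). The count was 1 without wild-type mouse 1, wild-type mouse 2 or Letmd1 KO mouse 2 and 1 by limma, and the call of Cd4 held in 2 of 6 fits that left out a mouse. Cd8a and Cd79a were at or under 3 counts in every mouse.

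Genes of other cells of the depot were set beside the shares over all genes tested, 23.7% higher and 22.3% lower. Adipocyte genes fell in 8 of 10 cases (median -1.42), led by Elovl3 and Ucp1, which fell by 4.74 and 4.05 on the log2 scale (Elovl3 by 5.89 without Letmd1 KO mouse 2), while Pparg and Lep had values of -0.18 and 1.15 (adjusted p = 0.470 and 0.250), with Lep running from 0.57 without Letmd1 KO mouse 3 to 2.95 without wild-type mouse 3, where it was called. Ucp1, the uncoupling protein of brown fat, had a mean of 6320 CPM in wild-type and 382 CPM in Letmd1 KO mice, so brown adipocyte RNA was present in both. Of 10 blood endothelial genes 1 rose (Plvap, 1.05) and 3 fell, with Kdr lowest (it fell by 0.99 on the log2 scale), and Emcn and Cldn5 had values of -0.52 and 0.71 that were not called. These 4 calls of 10 were near the shares over all genes tested and came to 2 without wild-type mouse 1 or Letmd1 KO mouse 2, and Cldn5 ran from 0.24 without wild-type mouse 1 to 1.56 without wild-type mouse 3, where it was called. Skeletal muscle genes, from a tissue that adjoins the depot, summed to 10.9, 398 and 8.99 CPM in wild-type and 420, 306 and 1222 CPM in Letmd1 KO mice. Of 14 tested, 3 rose, with Myh1 and Myh2 highest (3.27 and 3.15) and Atp2a1 and Mb lowest (1.64 and 0.76, not called). The muscle count was 13 of 14 without wild-type mouse 2, 1 without wild-type mouse 1 or 3 and 0 without Letmd1 KO mouse 3 (1 at an unadjusted p under 0.05), and 10 by limma and 1 by DESeq2. Of 8 tested erythroid genes, 0 were called by edgeR or DESeq2 and 1 by limma, with 1 at an unadjusted p under 0.05 in edgeR (Hba-a1, Hbb-b2 and Alas2 at -0.21, -0.28 and -0.51). The part of these other cells in the marker gene levels was not tested.

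Profiles over the 6 mice were compared by the root mean square difference of centred log2 CPM, as a description in which all genes share the same libraries. Nearest to Lyz2 were Tyrobp (0.12), Ctss (0.20) and Cd68 (0.22), which encode a myeloid adaptor, a lysosomal protease and a lysosomal membrane protein. Nearest to Csf1r were Plxnb2 (0.12), Ptpro (0.12) and Fcgr2b (0.14), and to Adgre1 Vav1 (0.14), Cyth4 (0.14) and Rab3il1 (0.16). F13a1 lay closest to Inpp5d (0.092), Cd2 (0.11) and P2ry6 (0.12), and Mrc1 to the mast cell gene Tpsb2 (0.053), Cxcl16 (0.10) and Stmn1 (0.14). Ccr2 had Sdf2l1 (0.12), Irf5 (0.13) and Ccl17 (0.17), and Cx3cr1 had Il21r (0.16), Slamf9 (0.16) and Neil3 (0.20). Cd163 lay near Dennd4b (0.025), Gm20605 (0.072) and Sptlc2 (0.088), Lyve1 near Jarid2 (0.11) and Ank3 (0.12), and Ly6c2 near Lsm5 (0.080), Hdac10 (0.091) and Tmbim1 (0.11). Among the 10 genes themselves, Csf1r and F13a1 were the closest pair (0.24) and Lyz2 and Ly6c2 the farthest apart (1.86).

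Since Spi1 rose with 9 of the marker genes, the 250 bases before each promoter's start were searched for GAGGAA, a PU.1 binding sequence. Both strands were searched for this exact sequence (TTCCTC on the other), and no variant or second motif was tried. The sequence was found in 23.3% of 32851 RefSeq promoters of GRCm38.p6. It was in promoters of 3 of the 7 marker genes searched (4 of 9 promoters, 2 of them overlapping windows of Ly6c2). The searched promoters of Cx3cr1, Cd163 and Ccr2, which rose, held no exact match, nor did a second promoter of F13a1. Adgre1 and Lyve1 had no matching entry. Csf1r was left out of the search, so its promoters are not in these counts of marker genes. For reference, 4 windows are shown, cut where the GENCODE gene begins, with matches in capitals. Those of Mrc1 and F13a1, which rose, hold the sequence. The window of Lyz2, which rose most, holds no exact match, and that of Ly6c2, which was not called, holds 1. In this order the windows lie at chr2:14229164-14229391 (plus strand), chr13:37050245-37050494, chr10:117282322-117282522 and chr15:75111972-75112221 (minus strand).
Mrc1: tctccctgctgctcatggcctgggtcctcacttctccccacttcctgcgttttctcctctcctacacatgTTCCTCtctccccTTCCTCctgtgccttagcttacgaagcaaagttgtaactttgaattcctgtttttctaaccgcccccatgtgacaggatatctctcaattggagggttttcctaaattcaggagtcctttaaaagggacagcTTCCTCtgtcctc
F13a1: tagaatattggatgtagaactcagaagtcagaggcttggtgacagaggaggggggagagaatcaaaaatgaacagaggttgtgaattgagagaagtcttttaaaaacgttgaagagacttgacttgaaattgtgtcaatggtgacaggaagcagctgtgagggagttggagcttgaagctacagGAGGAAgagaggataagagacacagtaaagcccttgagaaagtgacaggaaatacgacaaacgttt
Lyz2: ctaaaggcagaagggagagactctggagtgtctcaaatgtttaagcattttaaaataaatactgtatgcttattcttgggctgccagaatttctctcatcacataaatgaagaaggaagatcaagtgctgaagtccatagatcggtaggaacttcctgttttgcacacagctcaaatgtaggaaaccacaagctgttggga
Ly6c2: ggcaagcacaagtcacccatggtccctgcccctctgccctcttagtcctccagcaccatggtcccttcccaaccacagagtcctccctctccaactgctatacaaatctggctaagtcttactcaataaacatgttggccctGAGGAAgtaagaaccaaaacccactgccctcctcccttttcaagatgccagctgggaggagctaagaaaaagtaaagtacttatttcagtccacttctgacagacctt
Mrc1 had 3 matches, at 180, 167 and 35 bases before the start, F13a1 had 1 at 66 and Ly6c2 had 1 at 108. These are exact matches of letters, variants of the sequence were not searched, and binding was not measured.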

How the data were processed

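BAT of 3 wild-type and 3 Letmd1 KO mice was sequenced with QuantSeq 3′ mRNA libraries as single-end reads of 75 bases. The authors mapped reads to mm10 with Bowtie2 and used Bedtools to count them on genes, keeping reads with more than 1 alignment, per their methods and processing notes. They deposited whole-number counts per gene and mouse without normalization. The quantile normalization they name is not in the deposited counts, and the annotation and the use of strand in counting are not given in the sources used here.

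Groups came from the genotype labels. Replicates are separate libraries. Nothing in the labels says more of litter or batch, so p-values measure only the spread between these mice. Mice of a genotype were not repeats of 1 library: their counts differed beyond sampling (chi-square/df 11.5 to 34.0). Counts were tested across all genes with edgeR 4.0.16 in R 4.3.3, using TMM scaling, filterByExpr (minimum count 10, minimum total 15), the quasi-likelihood test and Benjamini-Hochberg adjustment at 0.05. The filter kept 12995 of 23282 rows, and 5588 rows were empty in all mice. Log2 levels used a prior count of 2. Ratios, differences and list medians got no test. Alternatives were library size alone, quantile normalization with limma 3.58.1, DESeq2 1.42.0, other filters, the replicate number as a block, other forms of the resident against monocyte difference and leaving out each mouse. A fold of at least 2 as a further requirement was added after seeing the data. On counts simulated for this comparison, edgeR recovered 70 of 100 genes changed 2-fold and 99 of 100 changed 4-fold, with 8 calls among 12740 unchanged genes. The simulated counts held few changed genes, as many up as down, and no difference of library composition between genotypes. These rates need not hold for the data, where 5979 genes were called.

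The marker genes and lists were chosen with earlier results of these data known. Genes named are the 10 markers, all ligands, partners and near relatives, the 2 highest and 2 lowest of each other list with its genes at or under 3 counts in every mouse, and the 3 nearest profiles. Some genes that this rule names are not reported here.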

Additional observations from a re-analysis of the deposited data

How the results depend on the processing

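Under 12 alternative settings, 8 marker genes kept their direction and their call in every one, and 111 of 120 values of single genes kept direction and side of the threshold. Cd163 lost its call in 5 settings, as given in the report. Ly6c2 was not called in any setting, and its log2 fold change turned to -0.16 after quantile normalization and ran from -0.10 to 0.26 when 1 mouse was left out. With library size as the only scaling, the median of all genes tested moved from 0.033 to 0.45, with Cd163 at 1.05 and Ly6c2 at 0.46, and quantile normalization put it at -0.053. Between 8 and 9 marker genes were called in all settings, and 8 with a fold of at least 2 as a further requirement, added after seeing the data. Genes past the threshold numbered 5979 in the reported fit and 4842 to 5868 with 1 mouse left out.

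The resident minus monocyte difference moved by -0.078 from wild type to Letmd1 KO as reported and by -0.19 to -0.011 with 1 mouse left out. It moved by 0.17 as a ratio of summed CPM, by 0.18 after quantile normalization, by -0.37 without Mrc1, by 0.19 without Cd163, by 1.36 without Ccr2 and by -1.52 without Ly6c2. The last pair differs only in which monocyte gene is used, and for the others the cause was not tested.

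With the replicate number as a replicate block, 5599 genes and 9 marker genes were called. Deviations of same-numbered mice correlated at r = 0.069, -0.11 and -0.087 across genes, and not every mouse correlated best with its own number. Correlations among so few mice cannot decide whether same-numbered mice shared a litter or batch. Depth set a floor of 0.176 to 0.397 CPM, which limits folds against Ccl2, Ccl7, Ccr1, Ms4a4c, Spp1 and Trem2 in wild-type mice to lower bounds.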
